A study of Homo sapiens with 12 samples.

Results

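Lysosome and autophagy genes were examined in VCaP, an established human prostate cancer cell line from a vertebral bone metastasis. They were chosen by symbol and comprise the V-ATPase subunits (ATP6V), the ATG genes, the LAMP membrane proteins, the ATG8 family (GABARAP and MAP1LC3), 9 cathepsins, and BECN1, ULK1, SQSTM1, TFEB and UVRAG. The array annotation held 62 such symbols. A probe with detection p under 0.01 on at least 3 arrays was available for 51 of them, which were tested among 10710 genes in all, each by its brightest detected probe. Of the 51, 46 were detected on all 12 arrays. The 11 that were not tested were ATG13, ATG9B, ATP6V0D2, ATP6V1C2, ATP6V1G2, ATP6V1G3, CTSS, LAMP5, MAP1LC3B2, MAP1LC3C and TFEB. Among those, TFEB was detected on 2 arrays, ATG13 and ATP6V0D2 on 1 array each, and the other 8 on 0.

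Autophagy encloses cytoplasm in a double membrane, the autophagosome, which then fuses with the lysosome. A kinase complex around ULK1 starts the process, a lipid kinase complex with BECN1 marks the membrane, and ATG proteins act like ubiquitin enzymes to attach ATG8 proteins to the growing membrane. In the lysosome the V-ATPase, a rotary proton pump made of a membrane sector (V0) and a cytosolic sector (V1), keeps the lumen acidic, and cathepsins digest proteins there. The transcription factor TFEB drives many of these genes through E-box sites. Androgens are known to alter autophagy in prostate cancer cells. PIAS1 is an E3 ligase for SUMO that acts on steroid receptors.

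Pooled siRNA had been transfected 96 h earlier and was either non-targeting (siSCR) or directed at PIAS1 (siPIAS1). All groups had been in medium with 2.5% charcoal-stripped serum, which is low in steroids, for 100 h when RNA was taken. Testosterone at 100 nM was added for the last 16 h or left out. The 4 groups, siSCR, siSCR with testosterone, siPIAS1, and siPIAS1 with testosterone, had 3 Illumina bead arrays each. The labels number the replicates without saying that they were separate cultures, so p-values measure the spread between these samples, which may be technical. VCaP is a single line.

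Levels below are normalized log2 signals, listed in the order of replicates 1, 2 and 3, and differences are in log2 units with their standard error. A gene is said to have risen or fallen where limma's adjusted p, taken over all 10710 genes, was under 0.05. Levels of different genes come from different probes and are not compared. Each array detected 32.5% to 36.0% of its probes. Testosterone-treated arrays are called treated below and the others untreated. Epithelial markers KLK2, TMPRSS2, FOXA1, EPCAM, KRT8, KRT18 and KRT19 were detected on all 12 arrays, while the basal keratins KRT5 and KRT14, the leukocyte gene PTPRC, the endothelial PECAM1 and the fibroblast gene DCN were detected on 0. Of markers of other cells, 1 of 4 basal, 2 of 5 fibroblast and muscle, and 3 of 5 blood and endothelial genes were tested. The summed log2 level of the 2 fibroblast and muscle genes was 16.97 to 17.74 on untreated and 13.73 to 14.17 on treated arrays, by way of LUM. That of the 3 blood and endothelial genes was 20.8 to 21.6 in the other groups and 24.9 to 25.2 in treated siPIAS1 cells, by way of LYZ. Their part in the results was not tested. PIAS1 itself read 10.25, 10.37 and 10.33 in siSCR cells and 9.12, 8.97 and 9.23 in siPIAS1 cells, and with testosterone 11.32, 11.43 and 11.47 in siSCR cells and 10.52, 10.59 and 10.83 in siPIAS1 cells. The siRNA thus lowered it by 1.21 ± 0.11 without and by 0.76 ± 0.11 with testosterone, and the hormone raised it in both settings. Array 3 of treated siPIAS1 cells, the outlying array below, correlated least with its own group, with a mean of 0.978, whereas no other array was under 0.986. Calls that are lost or gained without it, also in comparisons that share only its estimate of the spread, are therefore given beside the results.

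Testosterone after siSCR, which asks for the androgen response without PIAS1 knockdown, raised 13 of the 51 genes and lowered 7, and 31 did not pass. That is 39.2% called, 25.5% higher and 13.7% lower, beside 44.3% called, 20.0% higher and 24.3% lower of all genes tested. The median difference was 0.17 for the 51 genes and -0.02 for all genes. After siPIAS1, testosterone raised 18 and lowered 10, which is 54.9% called, 35.3% higher and 19.6% lower, beside 55.1%, 25.4% and 29.7% of all genes, with medians of 0.16 and -0.03. Without the outlying array, the counts after siSCR were 21 higher and 9 lower, when 53.8% of all genes were called. Those after siPIAS1 were 19 higher and 11 lower, when 55.5% of all genes were called. The lysosome and autophagy genes were thus called about as often as other genes, with more of the calls upward. In RNA from whole cultures, a change in the cells that carry a transcript and a change in its amount per cell cannot be told apart.

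**Figure D1:**
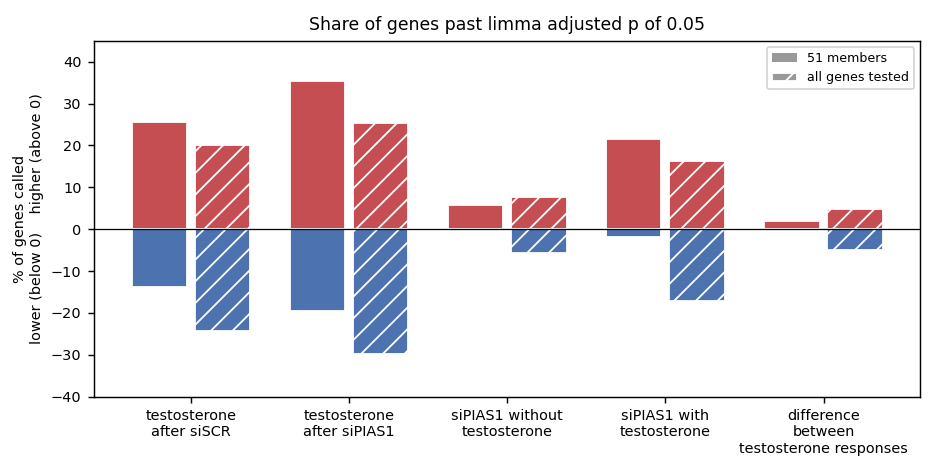
Percent of genes called higher (above 0) and lower (below 0) in each comparison, for the 51 members (plain bars) and all genes tested (hatched bars). The share called lower was smaller among the members than among all genes in each of the 5 comparisons, at 13.7% against 24.3% for testosterone after siSCR.

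Both testosterone responses come from different arrays. Across the 51 genes they correlated with a Pearson r of 0.814 (rho = 0.710), beside 0.824 (rho = 0.754) across all 10710 genes, as a description over genes that share arrays and a spread estimate. In 40 of the 51 the sign was the same, beside 8215 of all 10710 genes. A total of 9 genes rose in both, 6 fell in both, and 0 were called in opposite directions. Among all 10710 genes these counts were 1560, 1998 and 82.

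**Figure D2:**
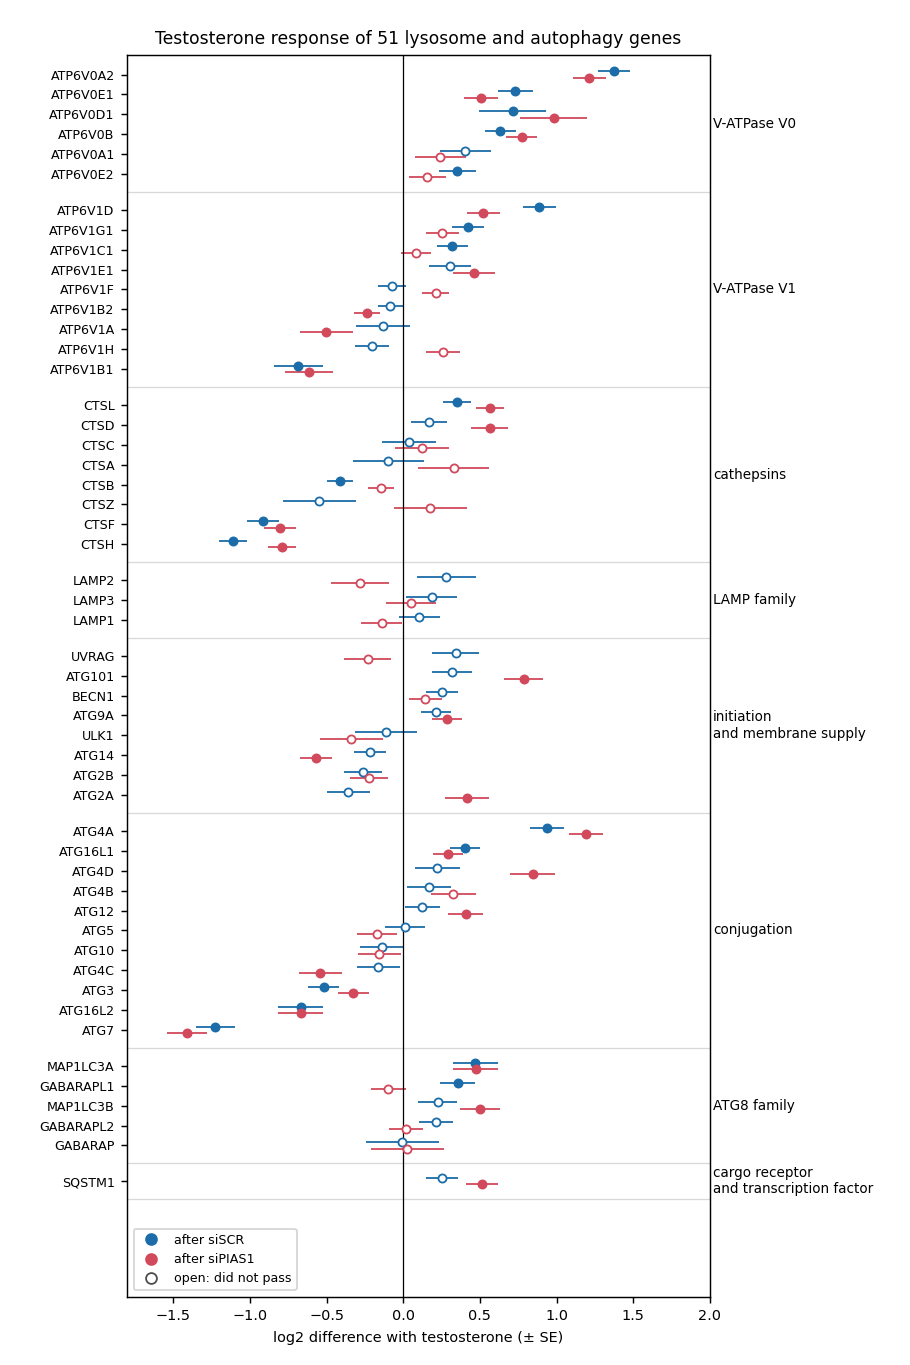
Log2 difference with testosterone (x axis, ± SE) of each of the 51 genes after siSCR (blue) and after siPIAS1 (red), grouped by role, with open circles where the difference did not pass. All 6 V0 subunits measured lie to the right of 0, led by ATP6V0A2, whereas ATG7, CTSH and CTSF lie furthest to the left.

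In the membrane sector of the proton pump, most of the subunits measured rose with testosterone. Some of these are isoforms of the same subunit, and ATP6V0C was not among the 62 symbols. Of 6 V0 subunits measured, 5 rose after siSCR and 4 after siPIAS1, and 0 fell in either, with medians of 0.67 and 0.64. In percent, 83.3 and 66.7 of them rose, beside 20.0 and 25.4 of all genes tested. ATP6V0A2, the a2 isoform of the large membrane subunit that is found mainly on Golgi and endosomal membranes, read 8.70, 8.56 and 8.74 in siSCR cells and 10.10, 10.001 and 10.02 with testosterone, then 8.80, 8.55 and 8.80 in siPIAS1 cells and 9.91, 9.81 and 10.08 with testosterone. All 6 arrays with testosterone lay more than 1 log2 unit above all 6 without it. The difference was 1.37 ± 0.11 after siSCR (limma adjusted p = 1.21e-07), a 2.59-fold rise, and 1.21 ± 0.11 after siPIAS1 (adjusted p = 3.92e-07). That was the largest rise of any member in both settings, although without the outlying array ATG4A (1.17) rose slightly more than ATP6V0A2 (1.14) after siPIAS1. ATP6V0E1, the small e1 subunit, read 11.51, 11.46 and 11.35 without and 11.94, 12.30 and 12.28 with testosterone after siSCR, and 11.66, 11.59 and 11.79 untreated and 12.12, 12.25 and 12.18 treated after siPIAS1. Groups with and without hormone did not overlap, and the rises were 0.73 ± 0.11 and 0.51 ± 0.11.

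ATP6V0D1, the d subunit that couples the rotor to the cytosolic sector, read 9.09, 8.99 and 8.96 in siSCR cells, 9.80, 9.68 and 9.71 with testosterone, 9.39, 8.93 and 8.97 in siPIAS1 cells and 9.83, 9.65 and 10.76 with testosterone. Its highest value by far was that of the outlying array. The rise was 0.71 ± 0.22 after siSCR (adjusted p = 0.0163) and 0.98 ± 0.22 after siPIAS1, or 0.64 without that array. The first call was lost without treated siSCR array 1 (adjusted p = 0.0510). ATP6V0B, the c'' subunit of the proton-carrying ring, gained 0.63 ± 0.10 after siSCR and 0.77 ± 0.10 after siPIAS1, and its other detected probe gave 0.78 and 0.87. ATP6V0E2, the second e isoform, rose after siSCR (0.35 ± 0.12), a call lost without untreated siSCR array 1 or 2 or treated siSCR array 1 (adjusted p at most 0.125). After siPIAS1 its difference was 0.16 ± 0.12 and did not pass. ATP6V0A1, the a1 isoform, missed the threshold with 0.41 ± 0.17 (adjusted p = 0.0624) and 0.24 ± 0.17. Its siPIAS1 arrays with testosterone read 11.30, 11.13 and 10.51, and without the low last array the differences were 0.41 (adjusted p = 0.00395) and 0.48 (adjusted p = 0.00276), both of which passed.

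**Figure D3:**
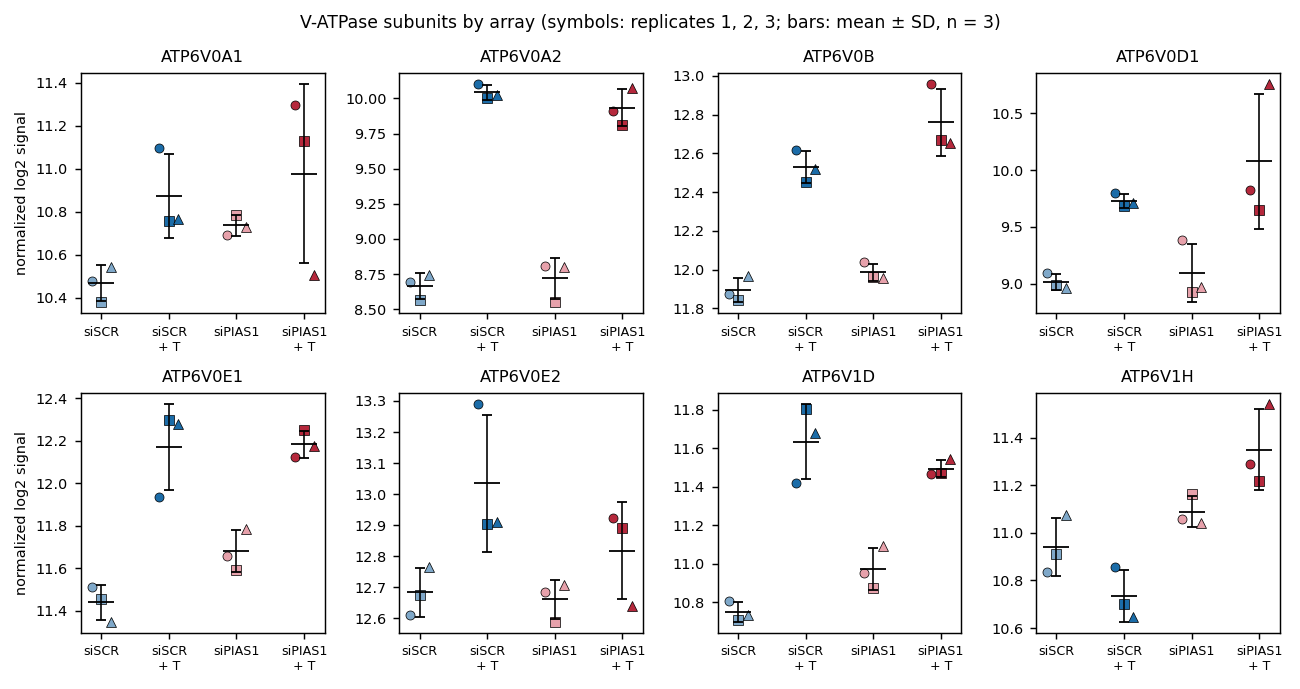
Normalized log2 signal (y axis, own scale per gene) of the 6 V0 subunits and of ATP6V1D and ATP6V1H on each array, in siSCR and siPIAS1 cells without and with testosterone (+ T), with symbols for replicates 1 to 3 and bars for the mean ± SD. ATP6V0A2 separates the hormone groups by more than 1 unit, while the mean of ATP6V1H is lowest in siSCR cells with testosterone and highest in siPIAS1 cells with it.

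The cytosolic sector moved less uniformly. Of 9 V1 subunits, 3 rose and 1 fell after siSCR, and 2 rose and 3 fell after siPIAS1, with medians of -0.07 and 0.21. The shares called, 44.4% and 55.6%, were close to those of all genes, 44.3% and 55.1%. ATP6V1D, the central stalk of the rotor, read 10.80, 10.71 and 10.73 in siSCR cells and 11.42, 11.80 and 11.68 with testosterone, and 10.95, 10.87 and 11.09 untreated and 11.47, 11.47 and 11.54 treated after siPIAS1. Both pairs of groups were separate, with rises of 0.89 ± 0.11 (adjusted p = 1.25e-05) and 0.52 ± 0.11 (adjusted p = 0.00102). The difference between those rises, -0.36 ± 0.15, did not pass (adjusted p = 0.143). The peripheral stalk subunit ATP6V1G1 and the C subunit ATP6V1C1 rose after siSCR by 0.42 and 0.32, and gave 0.26 and 0.08 after siPIAS1, which did not pass, although ATP6V1G1 did without the outlying array (0.34, adjusted p = 0.00928). The ATP6V1C1 call was lost without untreated siSCR array 2 or 3 or treated siSCR array 2 (adjusted p at most 0.0783). The other stalk subunit measured, ATP6V1E1, rose after siPIAS1 (0.46 ± 0.14), where the outlying array was high at 12.69 and the rise without it was 0.27. Its difference after siSCR, 0.31, did not pass, but did without that array (adjusted p = 0.00421). ATP6V1F and ATP6V1H, described below, passed in neither testosterone comparison.

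ATP6V1B1, the B1 isoform known from acid-secreting epithelia, fell in both settings. It read 8.05, 8.03 and 8.19 in siSCR cells, 7.76, 7.23 and 7.23 with testosterone, 8.04, 7.86 and 7.95 in siPIAS1 cells and 7.49, 7.52 and 6.998 with testosterone. Both pairs of groups were separate, and the falls were -0.68 ± 0.16 and -0.61 ± 0.16. ATP6V1B2, the widely expressed B2 isoform of the head, gave -0.08 ± 0.08 after siSCR, which did not pass, and fell after siPIAS1 (-0.24 ± 0.08). ATP6V1A, the catalytic head subunit, also fell after siPIAS1 by 0.50 ± 0.17, and by 0.22 without the outlying array. Both calls rested on single arrays: each was lost without untreated siPIAS1 array 1 or 3, and that of ATP6V1B2 also without treated siPIAS1 array 2 and under scaling to the 75th percentile (adjusted p at most 0.0849 and 0.0777 when 1 array was left out).

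Letters upstream of these genes were set beside the responses, because E-boxes near the start are a known feature of lysosomal genes. RefSeq promoters of 300 bases (250 before to 50 after the start, build GRCh38.p14) were matched by symbol for 40 of the 51 genes, 4 of them with several starts. The E-box CACGTG, which reads the same on both strands, was present in 10 of the 40 genes, or 25%, against 12.9% of 8653 tested genes with an entry. Per promoter rather than per gene, it was present in 23.9% of 46 promoters of members and 9.45% of 12556 promoters of tested genes. Of all 35116 promoters of that length, 7.26% held it. The longer letters TCACGTGA, which contain CACGTG, were in 5 of the 40 (12.5%) and in 2.45% of the tested genes. The steroid receptor half-site AGAACA, searched on both strands, was in 2 of the 40 (5%), namely ATG3 and ATP6V1D, and in 12.6% of the tested genes. The full palindrome, made of AGAACA, 3 free bases and TGTTCT, was in 0 of the 40 and in 0 of the tested genes. Such a match is a description of letters and not a site.

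The 10 genes with CACGTG were ATG3, ATG14, ATP6V0B, ATP6V0D1, ATP6V0E2, ATP6V1G1, CTSA, CTSD, CTSF and LAMP1. After siSCR, testosterone raised 4 of them and lowered 2, with a median of 0.14. It raised 6 and lowered 4 of the 30 genes with an entry and no CACGTG, with a median of 0.15. After siPIAS1 the counts were 3 higher and 3 lower of the 10, and 12 higher and 5 lower of the 30, with medians of 0.21 and 0.19. Genes with and without the motif thus had like medians, and the difference was not tested. Of all genes tested, 20.0% rose and 24.3% fell after siSCR, and 25.4% and 29.7% after siPIAS1. The sequences below run 5′ to 3′ on the strand of the gene, and capitals mark CACGTG or the half-site. They show the largest rises after siSCR that had an entry (ATP6V0A2, ATG4A, ATP6V1D and ATP6V0D1), then ATP6V0B, LAMP1 and CTSF as holders of CACGTG that rose, did not pass and fell, and last ATG7, the largest fall.
ATP6V0A2 (chr12:123712103-123712402, plus strand): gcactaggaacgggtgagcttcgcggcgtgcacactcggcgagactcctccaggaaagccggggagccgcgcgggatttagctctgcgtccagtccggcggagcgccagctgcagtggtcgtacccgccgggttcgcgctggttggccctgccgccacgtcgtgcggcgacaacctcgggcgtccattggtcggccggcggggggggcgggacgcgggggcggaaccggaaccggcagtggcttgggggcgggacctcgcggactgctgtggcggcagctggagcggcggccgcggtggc
ATG4A (chrX:108091528-108091827, plus strand): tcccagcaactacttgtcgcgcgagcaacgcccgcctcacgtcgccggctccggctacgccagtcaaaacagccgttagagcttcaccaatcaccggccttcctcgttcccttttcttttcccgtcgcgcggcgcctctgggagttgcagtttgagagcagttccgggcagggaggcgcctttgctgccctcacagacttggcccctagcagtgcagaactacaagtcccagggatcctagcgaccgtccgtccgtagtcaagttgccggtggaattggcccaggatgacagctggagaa
ATP6V1D (chr14:67359755-67360054, minus strand): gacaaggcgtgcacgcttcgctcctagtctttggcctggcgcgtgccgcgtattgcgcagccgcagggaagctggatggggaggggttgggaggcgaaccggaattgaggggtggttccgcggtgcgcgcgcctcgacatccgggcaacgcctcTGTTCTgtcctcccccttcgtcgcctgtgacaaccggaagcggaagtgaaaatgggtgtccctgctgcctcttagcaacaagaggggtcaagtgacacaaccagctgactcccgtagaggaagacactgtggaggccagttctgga
ATP6V0D1 (chr16:67481108-67481407, minus strand): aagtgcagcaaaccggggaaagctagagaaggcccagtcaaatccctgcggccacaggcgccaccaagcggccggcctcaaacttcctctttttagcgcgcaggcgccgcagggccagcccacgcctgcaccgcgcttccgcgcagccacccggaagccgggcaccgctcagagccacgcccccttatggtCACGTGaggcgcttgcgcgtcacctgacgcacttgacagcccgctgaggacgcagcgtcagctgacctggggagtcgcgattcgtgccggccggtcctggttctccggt
ATP6V0B (chr1:43974710-43975009, plus strand): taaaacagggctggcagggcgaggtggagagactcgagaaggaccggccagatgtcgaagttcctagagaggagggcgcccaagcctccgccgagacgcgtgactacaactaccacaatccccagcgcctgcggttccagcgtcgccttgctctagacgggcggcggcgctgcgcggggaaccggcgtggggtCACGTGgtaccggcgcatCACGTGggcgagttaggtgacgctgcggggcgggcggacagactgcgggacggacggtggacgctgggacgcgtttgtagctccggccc
LAMP1 (chr13:113296989-113297288, plus strand): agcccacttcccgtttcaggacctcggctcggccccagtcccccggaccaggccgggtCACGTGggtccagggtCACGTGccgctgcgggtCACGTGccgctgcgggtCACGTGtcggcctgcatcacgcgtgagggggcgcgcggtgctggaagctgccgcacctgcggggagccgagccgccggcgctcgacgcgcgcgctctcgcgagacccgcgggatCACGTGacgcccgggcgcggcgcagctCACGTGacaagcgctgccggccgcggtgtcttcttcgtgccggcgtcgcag
CTSF (chr11:66568557-66568856, minus strand): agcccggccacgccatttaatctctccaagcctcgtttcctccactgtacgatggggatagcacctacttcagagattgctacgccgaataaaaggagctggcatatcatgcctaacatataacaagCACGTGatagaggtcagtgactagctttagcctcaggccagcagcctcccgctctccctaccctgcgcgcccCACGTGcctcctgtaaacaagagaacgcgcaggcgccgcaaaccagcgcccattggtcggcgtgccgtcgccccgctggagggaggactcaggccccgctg
ATG7 (chr3:11272147-11272446, plus strand): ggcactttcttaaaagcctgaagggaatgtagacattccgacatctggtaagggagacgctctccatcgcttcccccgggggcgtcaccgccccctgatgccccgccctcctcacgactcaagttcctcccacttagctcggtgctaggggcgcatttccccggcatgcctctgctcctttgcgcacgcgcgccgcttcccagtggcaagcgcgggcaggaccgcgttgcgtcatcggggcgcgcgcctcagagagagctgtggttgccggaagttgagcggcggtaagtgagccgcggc
The LAMP1 promoter held 6 copies of CACGTG, the most of any member, and 2 of them lay within TCACGTGA. ATP6V0D1 held 1 copy, also within TCACGTGA, which began 60 bases before the start. ATP6V0A2, with the largest rise, and ATG7, with the largest fall, held 0 in this window.

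The cathepsins split by gene. Of 8 members tested, 1 rose and 3 fell with testosterone after siSCR, and 2 rose and 2 fell after siPIAS1. This is 50% called in each setting, beside 44.3% and 55.1% of all genes. CTSH, an aminopeptidase of the cysteine cathepsins, read 10.96, 11.03 and 10.997 in siSCR cells and 9.98, 9.83 and 9.84 with testosterone, and 11.14, 10.97 and 10.97 untreated and 10.28, 10.18 and 10.26 treated after siPIAS1. Every array with testosterone lay below every array without it. The fall was -1.11 ± 0.09 after siSCR (adjusted p = 2.29e-07), or 2.16-fold, and -0.79 ± 0.09 after siPIAS1 (adjusted p = 6.07e-06), and its other detected probe gave -0.73 and -0.50. CTSF, another cysteine cathepsin, read 10.50, 10.40 and 10.42 untreated and 9.54, 9.39 and 9.64 treated after siSCR, and 10.41, 10.63 and 10.43 untreated and 9.63, 9.62 and 9.82 treated after siPIAS1. It showed the same separation, with falls of -0.92 ± 0.10 and -0.80 ± 0.10.

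CTSL, a broad endopeptidase of the same class, went the other way and rose by 0.35 ± 0.09 and 0.57 ± 0.09, and its other detected probes gave between 0.44 and 0.85. CTSB fell after siSCR (-0.41 ± 0.09) and gave -0.15 ± 0.09 after siPIAS1, which did not pass. The aspartic protease CTSD rose after siPIAS1 (0.56 ± 0.12) and gave 0.17 ± 0.12 after siSCR. The differences between both responses did not pass for CTSB (adjusted p = 0.172) or CTSD (adjusted p = 0.144). CTSA, a carboxypeptidase that also protects other lysosomal enzymes, CTSC, a dipeptidyl peptidase, and CTSZ, a carboxypeptidase, passed in none of the 5 comparisons, except that the CTSZ difference of -0.55 after siSCR passed without the outlying array (adjusted p = 0.0240). For CTSA the last siPIAS1 array with testosterone read 9.91 against 8.76 and 8.72 on the other arrays of that group. Cathepsins outside the members were also tested: CTSO rose and CTSV fell with testosterone in both settings, and CTSK passed in neither. After siSCR the CTSO call was lost without untreated siSCR array 1 (adjusted p = 0.0647). The CTSV call there was lost without untreated siSCR array 1 or 2 or treated siSCR array 1 (adjusted p at most 0.0846).

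The LAMP proteins, which line the lysosomal membrane, did not pass in any of the 5 comparisons by their brightest probes, with unadjusted p under 0.05 for 0 of 3 in either testosterone comparison. Of all 10710 genes, 5455 after siSCR and 6423 after siPIAS1 had such a p. LAMP1 read 10.26, 10.31 and 10.30 in siSCR cells, 10.47, 10.31 and 10.39 with testosterone, 10.32, 10.56 and 10.49 in siPIAS1 cells and 10.56, 10.41 and 9.97 with testosterone. Treated and untreated groups overlapped or nearly touched. The testosterone difference was 0.11 ± 0.13 after siSCR (95% interval -0.18 to 0.39) and -0.14 ± 0.13 after siPIAS1 (95% interval -0.42 to 0.14). LAMP2, which also serves in chaperone-mediated autophagy, read 10.56, 10.78 and 10.77 in untreated and 10.86, 11.08 and 11.01 in treated siSCR cells, then 10.75, 10.81 and 11.13 in untreated and 10.85, 10.94 and 10.05 in treated siPIAS1 cells. Its last value was the lowest of all 12, and the testosterone difference after siPIAS1 was -0.28 with that array and near 0 without it, while that of 0.28 after siSCR then passed (adjusted p = 0.0423). The 5 other detected LAMP2 probes gave differences of 0.14 to 0.44 after siSCR and of -0.45 to 0.14 after siPIAS1, so that probes of this gene disagreed. When all detected probes were tested, those at 0.44 and 0.27 after siSCR and at -0.45 after siPIAS1 passed, as did -0.62 and -0.28 for siPIAS1 with testosterone. LAMP3 was detected on 8 arrays, with differences of 0.18 ± 0.17 and 0.05 ± 0.17.

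The genes that start autophagy did not pass with testosterone after siSCR in any of 8 cases, by limma adjusted p. An unadjusted p under 0.05 was found for 4 of the 8, beside 5455 of all 10710 genes. Among all genes 44.3% passed, and 53.8% without the outlying array. Without that array 5 of the 8 passed, with BECN1, UVRAG, ATG101 and ATG9A higher and ATG2A lower (adjusted p between 0.00246 and 0.0347). ULK1, the kinase that opens the pathway, read 10.98, 11.14 and 11.07 in siSCR cells, 11.14, 10.84 and 10.87 with testosterone, 11.47, 11.40 and 11.54 in siPIAS1 cells and 11.55, 11.36 and 10.48 with testosterone. The outlying array was the lowest of the 12, and the difference after siPIAS1 was -0.34 with it and near 0 without it. BECN1, the scaffold of the lipid kinase complex, read 10.44, 10.45 and 10.37 in untreated and 10.51, 10.84 and 10.67 in treated siSCR cells, then 10.58, 10.51 and 10.70 in untreated and 10.65, 10.72 and 10.85 in treated siPIAS1 cells, with differences of 0.25 ± 0.11 and 0.14 ± 0.11 with testosterone. UVRAG, a partner of BECN1, read 8.83, 8.75 and 8.77 in untreated and 9.17, 9.16 and 9.04 in treated siSCR cells, then 8.99, 8.93 and 9.10 in untreated and 8.97, 9.05 and 8.31 in treated siPIAS1 cells. Its siSCR groups were separate, yet the difference of 0.34 ± 0.15 did not pass (adjusted p = 0.0870). The other UVRAG probe, detected on 5 arrays, gave -0.01 after siSCR. ATG2B, a second lipid carrier detected on 7 arrays, passed in none of the 5 comparisons, and passed after siPIAS1 without the outlying array (-0.31, adjusted p = 0.0434). Only 1 of the 3 treated siPIAS1 arrays detected it. With that group raised to the lowest detected signal of each array, the fall over all arrays was at least 1.02-fold.

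After siPIAS1, testosterone raised 3 genes of this group and lowered 1, so that 50% were called, beside 55.1% of all genes. ATG101, a subunit of the ULK1 complex, read 9.36, 9.31 and 9.37 without and 10.01, 9.96 and 10.43 with testosterone after siPIAS1, against 9.63, 9.49 and 9.60 untreated and 10.07, 9.69 and 9.92 treated after siSCR. The rise after siPIAS1 was 0.78 ± 0.13 (adjusted p = 1.74e-04), and the difference after siSCR was 0.32 ± 0.13 (adjusted p = 0.0613). ATG14, which directs the BECN1 complex to autophagy, fell after siPIAS1 (-0.57 ± 0.10). ATG9A, a membrane protein of vesicles that seed the autophagosome, rose by 0.29 ± 0.10, and ATG2A, a lipid carrier, by 0.42 ± 0.14, and both calls were lost without the outlying array (adjusted p = 0.0666 and 0.0743). The ATG2A call was also lost without untreated siPIAS1 array 2 or 3 or treated siPIAS1 array 1, and the ATG9A call without untreated siPIAS1 array 3 and under scaling to the 75th percentile (adjusted p at most 0.0840 and 0.0922 when 1 array was left out). When all detected probes were tested, the other ATG9A probe gave 0.44 after siPIAS1 and passed (limma adjusted p = 0.0101).

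The conjugation enzymes held both the largest fall and the second-largest rise among the 51 genes after siSCR. Of 11, 2 rose and 3 fell after siSCR, and 4 rose and 4 fell after siPIAS1. Called were thus 45.5% and 72.7%, beside 44.3% and 55.1% of all genes. ATG7, the E1-like enzyme that activates both ATG12 and ATG8 proteins, read 9.09, 8.94 and 8.89 in siSCR cells and 7.71, 7.68 and 7.85 with testosterone, and 9.73, 9.64 and 9.45 in siPIAS1 cells and 8.33, 7.89 and 8.36 with testosterone. The siPIAS1 arrays without hormone were the highest and the siSCR arrays with hormone the lowest, with no overlap between any pair of groups compared. Testosterone lowered ATG7 by 1.23 ± 0.13 after siSCR (adjusted p = 2.99e-06), which is 2.34-fold, and by 1.41 ± 0.13 after siPIAS1 (adjusted p = 6.43e-07). ATG3, the E2-like enzyme next in the ATG8 chain, fell by 0.52 ± 0.10 and 0.33 ± 0.10. ATG10, the E2-like enzyme for ATG12, passed in none of the 5 comparisons, nor did ATG5, the acceptor of ATG12. Without the outlying array both passed for siPIAS1 with testosterone, ATG10 at 0.33 (adjusted p = 0.0492) and ATG5 at -0.36 (adjusted p = 0.0336).

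ATG4A, a protease that trims ATG8 proteins before conjugation, read 7.13, 6.97 and 7.05 in siSCR cells and 7.87, 8.19 and 7.89 with testosterone, and 7.18, 7.45 and 7.37 untreated and 8.53, 8.48 and 8.57 treated after siPIAS1. Groups with hormone were separate from those without, and siPIAS1 cells with hormone were the highest. The rise was 0.94 ± 0.11 after siSCR (adjusted p = 8.99e-06) and 1.19 ± 0.11 after siPIAS1 (adjusted p = 6.97e-07), and the other detected probe gave 0.66 and 1.20. The other ATG4 proteases differed from it. ATG4D read 7.26, 7.11 and 7.11 in untreated and 7.39, 7.48 and 7.28 in treated siSCR cells, then 7.28, 7.15 and 7.01 in untreated and 7.84, 7.74 and 8.39 in treated siPIAS1 cells, a rise of 0.85 ± 0.15 after siPIAS1 (0.65 without the outlying array) and 0.22 ± 0.15 after siSCR. Its other detected probe gave 0.40 and -0.01.

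ATG4C read 7.93, 8.17 and 7.91 in untreated and 7.54, 8.08 and 7.90 in treated siSCR cells, then 8.03, 7.75 and 8.03 in untreated and 7.54, 7.29 and 7.36 in treated siPIAS1 cells. It fell with testosterone after siPIAS1 (-0.54 ± 0.14) and gave -0.16 ± 0.14 after siSCR, where the groups overlapped. ATG4B passed in none of the 5 comparisons, but its difference after siPIAS1, 0.33, was 0.50 and passed without the outlying array (adjusted p = 0.00318). ATG16L1, which brings the ATG12-ATG5 pair to the membrane, rose by 0.40 ± 0.10 and 0.29 ± 0.10, whereas its paralog ATG16L2 fell. The second ATG16L1 rise was lost without untreated siPIAS1 array 2 or 3 (adjusted p at most 0.0651). ATG16L2 read 6.81, 6.88 and 7.11 untreated and 6.39, 6.18 and 6.21 treated after siSCR, and 7.01, 6.81 and 6.73 untreated and 5.89, 6.14 and 6.51 treated after siPIAS1. It was detected on 1 of 3 arrays in each testosterone group, so the fall was at least 1.49-fold (adjusted p = 0.00194) and at least 1.38-fold (adjusted p = 0.00162). Here the level of the dimmer group was set to the lowest detected signal of each array where that was higher. ATG12 rose after siPIAS1 (0.41 ± 0.11).

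Of the 5 ATG8 proteins measured, which coat the autophagosome and bind cargo receptors, 2 rose with testosterone in each setting and 0 fell. The share called was 40%, beside 44.3% of all genes after siSCR and 55.1% after siPIAS1. MAP1LC3A read 10.40, 10.31 and 10.42 untreated and 11.06, 10.77 and 10.71 treated after siSCR, and 10.58, 10.64 and 10.54 untreated and 11.24, 11.27 and 10.66 treated after siPIAS1. The rises were 0.47 ± 0.15 (adjusted p = 0.0184) and 0.47 ± 0.15 (adjusted p = 0.0148), and each rested on single arrays. The first was lost without untreated siSCR array 2 or treated siSCR array 1 (adjusted p at most 0.0826) and the second without treated siPIAS1 array 1 or 2 (adjusted p at most 0.0635). MAP1LC3B, the usual marker of autophagosomes, rose after siPIAS1 (0.50 ± 0.13) and gave 0.22 ± 0.13 after siSCR. Its close copy MAP1LC3B2 was below detection, and probes may not separate them. GABARAP and GABARAPL2 passed in none of the 5 comparisons.

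SQSTM1, the receptor that brings ubiquitin-marked cargo to ATG8 proteins and is itself degraded by autophagy, read 12.02, 12.07 and 12.12 in siSCR cells, 12.42, 12.25 and 12.30 with testosterone, 12.29, 12.25 and 12.38 in siPIAS1 cells and 12.83, 12.63 and 12.999 with testosterone. Arrays with both siPIAS1 and testosterone were the highest. The rise after siPIAS1 was 0.51 ± 0.11 (adjusted p = 9.54e-04), while 0.25 ± 0.11 after siSCR did not pass (adjusted p = 0.0660, or 0.0222 without the outlying array).

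**Figure D4:**
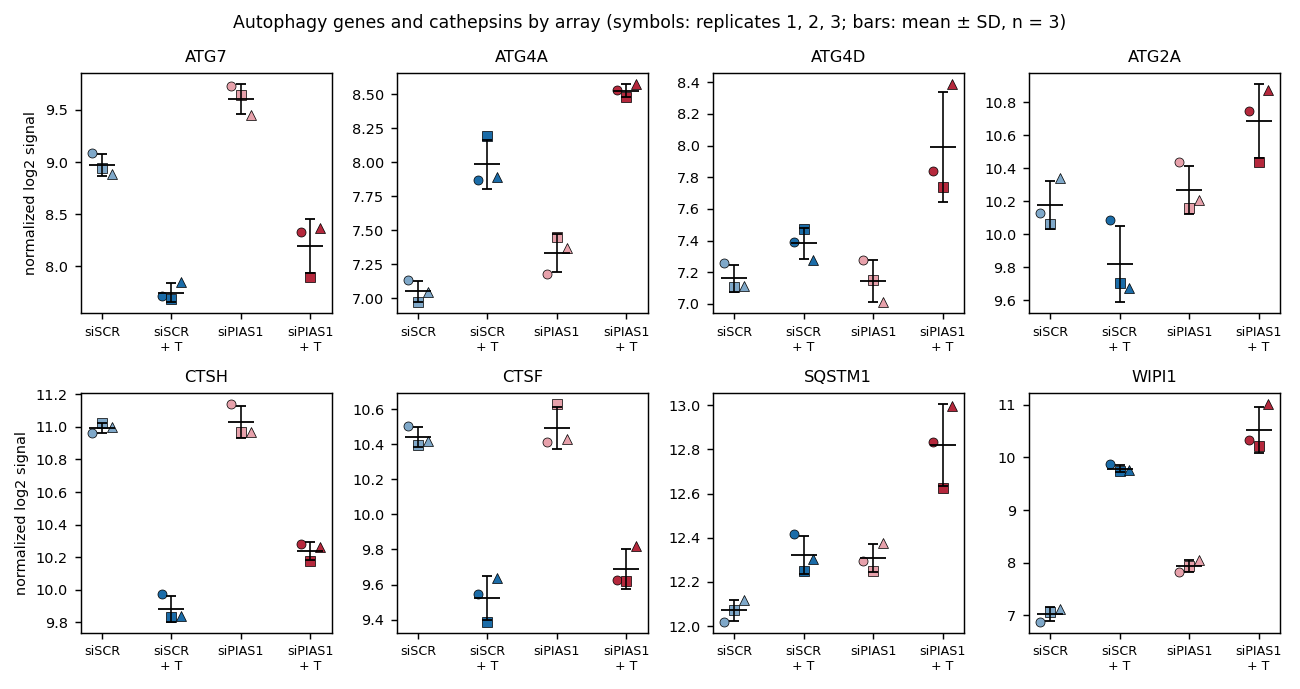
Normalized log2 signal (y axis, own scale per gene) on each array of autophagy genes, 2 cathepsins and WIPI1, in siSCR and siPIAS1 cells without and with testosterone (+ T), with symbols for replicates 1 to 3 and bars for the mean ± SD. ATG7, CTSH and CTSF are lower and ATG4A and WIPI1 higher in both testosterone groups, and ATG2A and SQSTM1 are highest in siPIAS1 cells with testosterone.

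The siPIAS1 comparisons ask what the knockdown changed by itself. Without testosterone it raised 3 of the 51 genes and lowered 0, which is 5.88% higher and 0% lower, beside 7.56% and 5.77% of all genes, or 13.3% in either direction. Without the outlying array 6 were higher and 0 lower, with ULK1 (0.41), ATG16L1 (0.27) and ATP6V1E1 (0.25) added. Of all 10710 genes, 1295 were then higher and 1186 lower, or 23.2% in either direction. ATG7 rose by 0.63 ± 0.13 (adjusted p = 0.00585), GABARAPL1, an ATG8 protein, by 0.56 ± 0.12 (adjusted p = 0.00629) and ATP6V1B2 by 0.34 ± 0.08 (adjusted p = 0.0170). GABARAPL1 read 8.57, 8.55 and 8.52 in siSCR cells and 9.15, 8.90 and 9.27 in siPIAS1 cells, and with testosterone 8.84, 8.97 and 8.90 in siSCR and 8.84, 9.002 and 9.20 in siPIAS1 cells. The siSCR arrays without hormone were the lowest of the 12. Testosterone raised it after siSCR (0.35 ± 0.12, lost without array 2 or 3 of either siSCR group and under scaling to the 75th percentile, adjusted p at most 0.0765 when 1 array was left out) and gave -0.10 ± 0.12 after siPIAS1, and the difference between both, -0.45, did not pass (adjusted p = 0.0951). Without the outlying array it was -0.54 and passed (adjusted p = 0.0263). ATP6V1B2 read 11.70, 11.67 and 11.70 in untreated and 11.60, 11.60 and 11.62 in treated siSCR cells, then 12.03, 11.98 and 12.06 in untreated and 11.85, 11.76 and 11.76 in treated siPIAS1 cells. Its replicates were close together, and all siPIAS1 arrays lay above all siSCR arrays of the same hormone setting. Its call without testosterone was nevertheless lost without siSCR array 1 or 2 or siPIAS1 array 1 or 3 (adjusted p at most 0.0678).

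With testosterone present, siPIAS1 raised 11 of the 51 genes and lowered 1, which is 21.6% higher and 1.96% lower, beside 16.3% and 17.2% of all genes, or 33.5% in either direction. The median was 0.16, and that of all genes was near 0. Without the outlying array the counts were 15 higher and 2 lower, when 33.7% of all genes were called. Those that then passed were ULK1 (0.18 with and 0.51 without that array), MAP1LC3A (0.21 and 0.41), ATP6V0A1 (0.10 and 0.34), ATP6V0B (0.23 and 0.28), and ATG10 and ATG5 as given above, with ATG5 lower. The largest rise was that of ATG2A, at 0.87 ± 0.14 (adjusted p = 5.31e-04). ATP6V1H, the regulatory V1 subunit, read 10.86, 10.70 and 10.65 in siSCR cells and 11.29, 11.22 and 11.54 in siPIAS1 cells with testosterone, and 10.84, 10.91 and 11.08 in siSCR cells and 11.06, 11.16 and 11.04 in siPIAS1 cells without it. The hormone-treated groups were separate, with a rise of 0.61 ± 0.11 (adjusted p = 9.95e-04), and the untreated groups overlapped (0.15 ± 0.11).

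The other genes that rose with siPIAS1 under testosterone were ATG4D (0.61), ATG4A (0.54), SQSTM1 (0.50), MAP1LC3B (0.47), ATG7 (0.45), the rotor subunit ATP6V1F (0.42), ATP6V1E1 (0.40), CTSB (0.37) and CTSH (0.35), and the gene that fell was ATG4C (-0.44). The call of ATP6V1E1 was lost without the outlying array (adjusted p = 0.0799) and without any of the 3 treated siSCR arrays, as well as under scaling to the 75th percentile and with array weights. The ATG4C call was lost without treated siSCR array 2 or 3 or treated siPIAS1 array 2, and the ATG7 call without treated siSCR array 2 or treated siPIAS1 array 1 (adjusted p at most 0.130 and 0.0651). With only the compared groups in the fit, the calls of these 3 genes and those of MAP1LC3B, CTSB and CTSH were lost, and that of MAP1LC3B also with array weights. When all detected probes were tested, the other probes of ATG4D (0.17, limma adjusted p = 0.361), CTSB (0.18, 0.186) and CTSH (0.36, 0.128) did not pass. Those of ATG4A (0.60) and ATP6V1E1 (0.53) did. ATG7 was the 1 gene called in both knockdown comparisons. Of all 10710 genes, 390 were higher in both, 345 lower in both and 87 called in opposite directions. Across the 51 genes both knockdown effects correlated with an r of 0.136 (rho = 0.109), beside 0.404 (rho = 0.363) across all genes. The sign was the same in 35 of 51, beside 6627 of all 10710 genes. Each knockdown comparison shares a group of arrays with each testosterone comparison, so opposite or like differences between them are not independent.

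**Figure D5:**
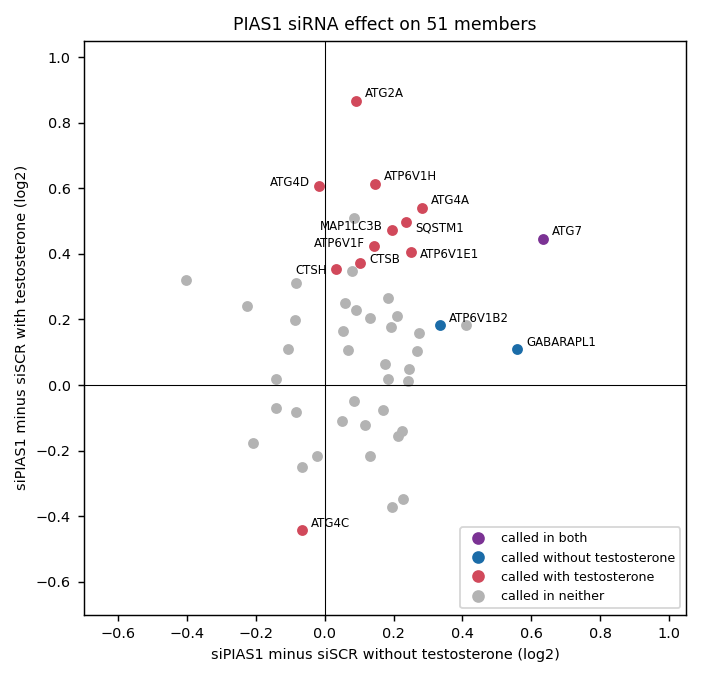
Log2 difference of siPIAS1 minus siSCR without testosterone (x axis) and with it (y axis) for each of the 51 genes, coloured by the comparison in which limma's adjusted p was under 0.05. ATG7 is called in both, GABARAPL1 and ATP6V1B2 only without and 11 genes only with testosterone, of which ATG4C alone lies below 0.

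The difference between both testosterone responses asks whether PIAS1 siRNA alters the androgen response. It passed for 1 of the 51 genes (1.96% higher, 0% lower), beside 4.88% higher and 5.06% lower of all genes, or 9.94% in either direction. An unadjusted p under 0.05 was found for 12 of the 51, beside 2926 of all 10710 genes. The gene that passed was ATG2A, which carries lipids into the growing autophagosome. It read 10.13, 10.06 and 10.34 in siSCR cells and 10.08, 9.70 and 9.67 with testosterone, against 10.43, 10.16 and 10.21 in siPIAS1 cells and 10.75, 10.44 and 10.87 with testosterone. The signal was lower with hormone after siSCR, where replicate 1 overlapped the untreated arrays, and higher with hormone after siPIAS1. The differences were -0.36 ± 0.14 (adjusted p = 0.0570) and 0.42 ± 0.14 (adjusted p = 0.0238), and the difference between them was 0.78 ± 0.20 (adjusted p = 0.0275). That call was lost without untreated siSCR array 1 or 3, treated siSCR array 2 or 3, or untreated siPIAS1 array 2 or 3 (adjusted p at most 0.0798), and held without the outlying array (0.68, adjusted p = 0.0355), when GABARAPL1 also passed, in the other direction. The next smallest were ATG4D (0.62 ± 0.21, adjusted p = 0.0725) and ATP6V1H (0.47 ± 0.16, adjusted p = 0.0743).

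Other genes of the pathway came from a list of 110, of which 93 were tested. Testosterone raised 25 and lowered 13 after siSCR, and raised 32 and lowered 18 after siPIAS1. Among all genes 20.0% rose and 24.3% fell after siSCR, and 25.4% and 29.7% after siPIAS1. By function after siSCR, 9 of 38 lysosomal enzymes, membrane and sorting proteins rose and 8 fell, 5 of 16 initiation and membrane genes rose and 1 fell, 4 of 11 fusion genes rose and 1 fell, 4 of 8 receptors and adaptors rose and 1 fell, and 3 of 20 nutrient signalling genes rose and 2 fell. WIPI1, which binds the lipid made by the BECN1 complex, read 6.88, 7.07 and 7.13 in siSCR cells and 9.87, 9.73 and 9.76 with testosterone, and 7.82, 7.93 and 8.06 untreated and 10.34, 10.21 and 11.01 treated after siPIAS1. All 4 groups were separate, with testosterone differences of 2.76 ± 0.17 (adjusted p = 9.74e-09), or 6.79-fold, and 2.58 ± 0.17 (adjusted p = 1.75e-08). It also rose with siPIAS1, by 0.91 ± 0.17 without and 0.73 ± 0.17 with testosterone. The call without testosterone was lost with the authors' normalized log2 values (limma adjusted p = 0.0909).

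Next after siSCR were TECPR1, which acts when autophagosomes fuse with lysosomes (1.07 after siSCR and 0.92 after siPIAS1), SGSH, a sulfatase of heparan breakdown (1.01 and 0.89), LGMN, an asparaginyl protease (1.01 and 0.44), and NPC1, which exports cholesterol (0.73 and 0.20, the second not passing with the outlying array and passing without it). After siPIAS1 the largest rises also included WDR45 (0.92, or 0.55 without the outlying array) and the calcium channel MCOLN1 (0.92, or 0.74). The largest falls were those of MANBA, a mannosidase (-1.35 and -1.20), the cargo receptor OPTN (-1.06 and -1.51), the thioesterase PPT1 (-0.69 and -1.02) and the mTOR inhibitor DEPTOR (-0.66 and -1.04). GAA, the glycogen-splitting glucosidase, fell after siSCR (-0.79), a call lost in 9 of 12 fits that left out 1 array (adjusted p at most 0.201 over all alternatives), and LAMTOR2, a subunit of the lysosomal anchor of mTOR, after siPIAS1 (-0.75).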

How the data were processed

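VCaP RNA was measured on 12 Illumina bead arrays in 4 groups of 3, grouped by the sample titles. For every probe on every array the file headers name a raw signal intensity and a detection p-value, both as deposited. A second table of normalized log2 values comes from the authors. The submitters' processing notes name lumi for it, without its settings. Each of its columns ranked probes exactly as that array's raw signal did, so its direction is known and its transform and centring are not. Its array medians lay between 7.60 and 7.61, and it served as an alternative.

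From the raw signals, neqc removed background and applied quantile normalization (limma 3.58.1, R 4.3.3, offset 16, background from the detection p-values), which compresses folds at low signal. Of 47323 probes, 30113 had 1 gene symbol in the platform annotation, 8 had several and 17202 had none listed. Symbols were updated through the gene identifier in RefSeq (GRCh38.p14). A probe was kept with detection p under 0.01 on at least 3 arrays, and each gene was read from its kept probe with the highest mean. One limma model with 4 group means gave all comparisons, two-sided, with Benjamini-Hochberg adjustment over 10710 genes. It was tested on simulated data. The smallest p of an exact permutation of 3 against 3 arrays is 0.1, so none was run. The number of arrays limits the precision. No slide or scan date was used, since the files name none.

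The members and the gene lists were chosen with earlier results of these data known. Arrays were listed in full for up to 5 members with the largest difference in each direction among those past the threshold in each comparison, the member with the smallest p after siSCR in each functional group, and ULK1, BECN1, UVRAG, LAMP1, SQSTM1 and PIAS1. Other members are named by their differences. The LAMP1, ATP6V0B, CTSF and ATG7 promoters were chosen after their values were seen. Same-numbered replicates did not deviate together (correlations of -0.260 to 0.195 over all genes), so they were not treated as pairs. No 2 arrays of a group held identical values. Alternatives changed the normalization, background, offset, filter, probe choice, weights, arrays fitted and replicate block, and left out each array in turn.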

Additional observations from a re-analysis of the deposited data

Results flagged for a closer look

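The difference between both testosterone responses passed limma's adjusted p of 0.05 for ATG2A among the members and for 4 of the 93 other pathway genes tested, beside 9.94% of all genes. ATG2A had 0.78 ± 0.20 log2 units more testosterone response after siPIAS1 than after siSCR (adjusted p = 0.0275). WIPI2, a paralog of WIPI1, had 0.50 ± 0.15 more (adjusted p = 0.0444), from -0.09 after siSCR to 0.41 after siPIAS1. LGMN had a difference of -0.57 ± 0.14 (adjusted p = 0.0243), from 1.01 to 0.44. NPC1 had -0.54 ± 0.13 (adjusted p = 0.0225), from 0.73 to 0.20. FYCO1, an adaptor that carries autophagosomes along microtubules, had -0.48 ± 0.14 (adjusted p = 0.0458), from -0.25 to -0.73. Leaving out 1 array at a time ended the call of WIPI2 in 9 of 12 fits, FYCO1 in 8, NPC1 in 5, LGMN in 3 and ATG2A in 6. Among the 93 genes the count was then 0 to 9. It was 0 without untreated siSCR array 2, when 6.78% of all genes were called, and 9 without treated siSCR array 1, when 12.9% were. With the replicate block it was 2, beside 8.80% of all genes, and WIPI2 and FYCO1 no longer passed. Groups of 3 arrays are too small for a test of single outlying arrays.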

How the results depend on the processing

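No member's call reversed under any of the 23 alternatives. Among repeats of the 64 called member differences, 1405 kept their direction and passed and 64 kept their direction and no longer passed. Shares of all genes called are given in brackets. The count of members called for testosterone after siSCR was 20 (44.3%) and became 35 with array weights (60.2%). For testosterone after siPIAS1 it was 28 (55.1%), with 23 (48.4%) to 33 (59.6%) in all alternatives. For siPIAS1 without testosterone the count of 3 (13.3%) became 14 with array weights (31.3%) and 10 with only the groups compared (25.3%). For siPIAS1 with testosterone the count of 12 (33.5%) became 6 with only the groups compared (18.5%). For the difference between testosterone responses the count of 1 (9.94%) became 4 on the authors' log2 table (11.2%) and 2 without background correction (11.7%). It became 2 with the mean of detected probes (11.1%) and 8 with array weights (24.4%). Leaving out 1 array at a time gave 16 to 30, 23 to 30, 2 to 6, 9 to 17 and 0 to 4 members in the 5 comparisons in the order above. The share of all genes called in those fits ran from 37.7% to 53.8%, 48.1% to 55.7%, 7.14% to 23.2%, 22.2% to 35.0% and 6.13% to 14.1%. The values of 30 after siSCR and 6 without testosterone came without siPIAS1 replicate 3 with testosterone, an array of neither comparison whose group shares the estimate of the spread. The cause of the other changes was not tested. Scaling to the 75th percentile moved the median of all genes by at most 0.0607. With the replicate block, 22, 28, 3, 12 and 1 members were called, and same-numbered arrays shared only a number. Of all genes, 43.5%, 54.3%, 12.1%, 31.8% and 8.80% were called with it.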
